A study of Mus musculus with 16 samples.

Results

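The cytosolic ribosomal protein genes encode the protein part of the ribosome that translates nuclear mRNAs. Rows of the expression table whose symbol was Rpl or Rps, a number and at most 1 letter out of a, x, y and l were taken, 76 in all, and the 73 with a mean of over 1 RPKM (reads scaled to gene length and to the library's mapped reads) across all 16 libraries formed the set. Of the 38355 genes in the table, these 73 were 30 genes of the small subunit (Rps) and 43 of the large subunit (Rpl). The 3 rows left out were Rpl39l (0.228 RPKM), Rpl3l (0.0598 RPKM) and Rpl10l (0.00338 RPKM), paralogs known for their use in testis or muscle. The 2 members nearest to the threshold from above were Rps27l (22.8 RPKM) and Rpl24 (42.3 RPKM), so no member was close to it. All 73 were among the 12507 genes tested, which had a mean above 1 RPKM in at least 1 group.

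Splenic B cells of C57BL/6 mice lacking miR-146a (KO, Mir-146a-/-) and of wild-type mice (WT) were sorted by flow cytometry into transitional 1 (T1), transitional 2 (T2), marginal zone (MZ) and follicular (FO) cells, and their mRNA was sequenced in 2 libraries for each of the 8 groups. Cells of several spleens were pooled for a sort, the deletion was present in every cell of the mouse and not in B cells alone, and ages are not given in the labels. No agent was given to any group. The libraries of a group are described in the methods as biological replicates. Which mice went into which pool is not given in the labels, so the p-values below measure only the spread between these libraries.

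Ribosomal proteins are made in near-equal amounts and assembled with ribosomal RNA in the nucleolus. In vertebrates their mRNAs begin with a run of pyrimidines at the 5′ end, the terminal oligopyrimidine tract, through which the mTOR pathway controls their translation. Their transcripts are short and among the most abundant of any cell, and growing lymphocytes are known to increase ribosome production when they are activated. The deposited values report mRNA only and say nothing of translation or of the number of ribosomes.

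RefSeq promoters (GRCm38.p6) were matched for 54 of the 73 members. Windows of 40 bases before to 15 bases after the annotated start site are shown for members on which the results below turn, with the pyrimidine run near the start site in capitals (5 or more C or T, the first a C no more than 5 bases from the start site). Rps6, Rps18, Rps24, Rps27 and Rpl38 hold such a run, and in Rps27l, the member with another expression pattern, it has 5 bases. Runs of 5 bases were also those of Rpl19 and Rpl39, which rose with the set. Their log2 differences were 0.47 and 0.64 for T2 minus T1 and 0.55 and 0.58 for MZ minus T2. Rps12 and Rpl13 have none at that distance, but their windows hold the runs ccttttc and cttccctttc farther from the start site. The rule takes the annotated start site as given, so a member without a counted run may still have the tract.
Rps6 (chr4:86857353-86857407, minus strand): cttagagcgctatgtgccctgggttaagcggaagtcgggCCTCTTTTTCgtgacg
Rps18 (chr17:33955651-33955705, minus strand): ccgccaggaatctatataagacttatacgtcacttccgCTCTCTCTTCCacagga
Rps24 (chr14:24490638-24490692, plus strand): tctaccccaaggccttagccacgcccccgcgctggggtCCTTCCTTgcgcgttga
Rps27 (chr3:90213634-90213688, minus strand): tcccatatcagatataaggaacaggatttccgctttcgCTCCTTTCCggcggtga
Rpl38 (chr11:114668540-114668594, plus strand): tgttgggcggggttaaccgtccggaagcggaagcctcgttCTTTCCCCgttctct
Rps12 (chr10:23787195-23787249, minus strand): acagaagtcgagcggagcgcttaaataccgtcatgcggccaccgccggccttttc
Rpl13 (chr8:123102310-123102364, plus strand): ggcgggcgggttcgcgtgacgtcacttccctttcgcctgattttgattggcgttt
Rps27l (chr9:66946046-66946100, plus strand): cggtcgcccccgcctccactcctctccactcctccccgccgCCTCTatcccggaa

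Over all matched members, 26 of 54 (48.1%) had the run by this rule, against 20.4% of the 8118 tested genes with a promoter and 18.5% of all 27025 promoters. Both strands of the 300-base promoter (250 before to 50 after the start site) were also searched for 5 short motifs. The letters CCGGAAG, bound by GABP and other Ets factors, were in 38.9% of members, 20.4% of tested genes and 9.12% of all promoters. AAGATGG, the core of the YY1 site, was in 14.8%, 7.92% and 6.48%. The SP1 letters GGGCGG were in 57.4% of members, 64.9% of tested genes and 35.9% of all promoters. TATAAA was in 7.41%, 6.39% and 14.2%, and the E box CACGTG, to which Myc binds, in 9.26%, 10.6% and 7.24%. A match is a description of the letters and not a bound site. The members with the pyrimidine run and those without it had like expression differences, with medians of 0.48 (26 genes) and 0.51 (28 genes) on the log2 scale for T2 minus T1 and of 0.56 and 0.52 for MZ minus T2.

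Library totals, recovered from what a single read is worth in each library, were between 9003343 reads (WT T2 replicate 1) and 26386684 reads (WT FO replicate 1). Defining markers followed the sort. Cd93, the antigen of immature B cells, had mean levels of 31.9 RPKM (T1), 11.5 RPKM (T2), 0.306 RPKM (MZ) and 2.16 RPKM (FO), Fcer2a (CD23) of 41.2, 655, 14.7 and 686 RPKM, and Cr2 (CD21) of 25.3, 156, 829 and 199 RPKM in the same order. The T1 libraries held many plasma cell transcripts, with 686 to 4160 RPKM summed over 5 marker genes against 91.5 to 223 RPKM in the other 12 libraries. Most of it came from Igj, the joining chain of IgM and IgA (mean 2063 RPKM in T1). In the order T1, T2, MZ and FO, Xbp1 averaged 88.6, 32.3, 35.4 and 31.1 RPKM and Sdc1 10.8, 1.85, 0.155 and 4.05 RPKM. Prdm1 averaged 6.39, 0.713, 5.17 and 0.578 RPKM in this order, and Irf4, highest in MZ, 124, 110, 131 and 81.8 RPKM. Both T1 replicate 2 libraries stood apart, with 22.9% (WT) and 25.7% (KO) of summed RPKM in 10 genes. Summed myeloid markers were 14.2 to 75.8 RPKM (T1), 48.3 to 90.8 RPKM (T2), 81.1 to 124 RPKM (MZ) and 10.9 to 24.9 RPKM (FO). In MZ most of this was Mpeg1 (mean 84.9 RPKM). T cell markers summed to 6.91 to 29.6 RPKM over all libraries.

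Ribosomal protein mRNA took the smallest share of the transcriptome in T1 cells and the largest in MZ cells. In T1 the 73 genes held 2.22% and 2.97% of all reads in the KO libraries and 2.66% and 3.07% in the WT libraries. In T2 they held 3.40% and 4.51% in KO and 3.62% and 4.10% in WT. The share in MZ was 5.24% and 5.99% in KO and 6.05% and 5.74% in WT, and in FO it was 4.77% and 4.54% in KO and 4.69% and 4.55% in WT. The 4 subsets did not overlap in this share, with means over both genotypes of 2.73% ± 0.380 for T1, 3.91% ± 0.496 for T2, 5.75% ± 0.369 for MZ and 4.64% ± 0.111 for FO (SD, n = 4 each). Summed RPKM, which counts each gene per length, placed 5.17% to 6.29% of T1, 8.89% to 11.3% of T2, 13.8% to 14.8% of MZ and 11.5% to 11.9% of FO expression in the set. These values are relative to each library's total: in sorted bulk samples, fewer cells of a type and less RNA per cell cannot be told apart, and neither can be told from a change in all other transcripts. Replicate 2 was above replicate 1 in T1 and T2 of both genotypes and in KO MZ, and below it in WT MZ and in FO of both genotypes.

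**Figure D1:**
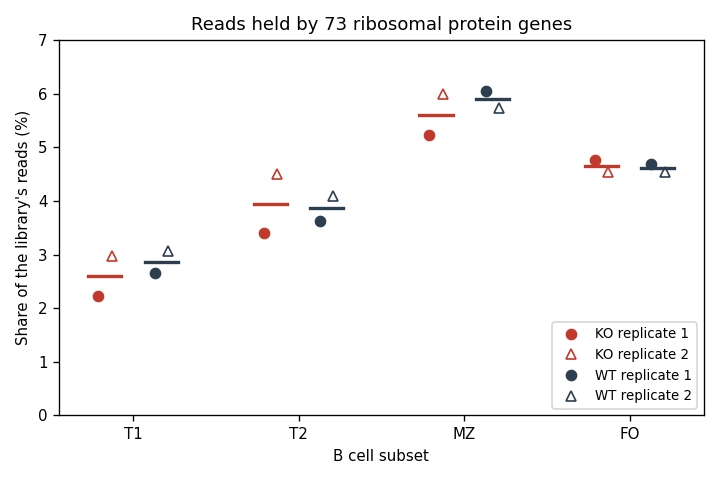
Share of each library's reads (percent, vertical axis) held by the 73 ribosomal protein genes in the 4 B cell subsets, KO left of WT, with a point for each library and a line at the mean of 2. All T1 libraries lie between 2.22% and 3.07% and all MZ libraries between 5.24% and 6.05%.

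The rise was shared by nearly all members, but its size differed among them. Leaving Rps27l aside, log2 differences for MZ minus T2 ran from 0.09 (Rpl35a) to 1.05 (Rps12). Means of log2(RPKM + 0.5) followed the order T1, T2, FO, MZ from low to high in 69 of 73 members (94.5%), an order that 15.2% of all tested genes had. Rpl30, Rpl35a and Rps25 had FO below T2 in place of this, and Rps27l had FO lowest and T1 highest. The moderated F test of limma over the 4 subsets called 72 of 73 members (adjusted p under 0.05, Benjamini-Hochberg), against 64.2% of all tested genes, with Rps27l as the exception (adjusted p = 0.69). Across 16 libraries each member followed the mean of the other members with a median correlation of 0.98, and 71 of 73 were above 0.9. These correlations share each library's depth and composition and are given as a description, and the lowest were those of Rps27l (-0.08) and Rpl35a (0.90).

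**Figure D2:**
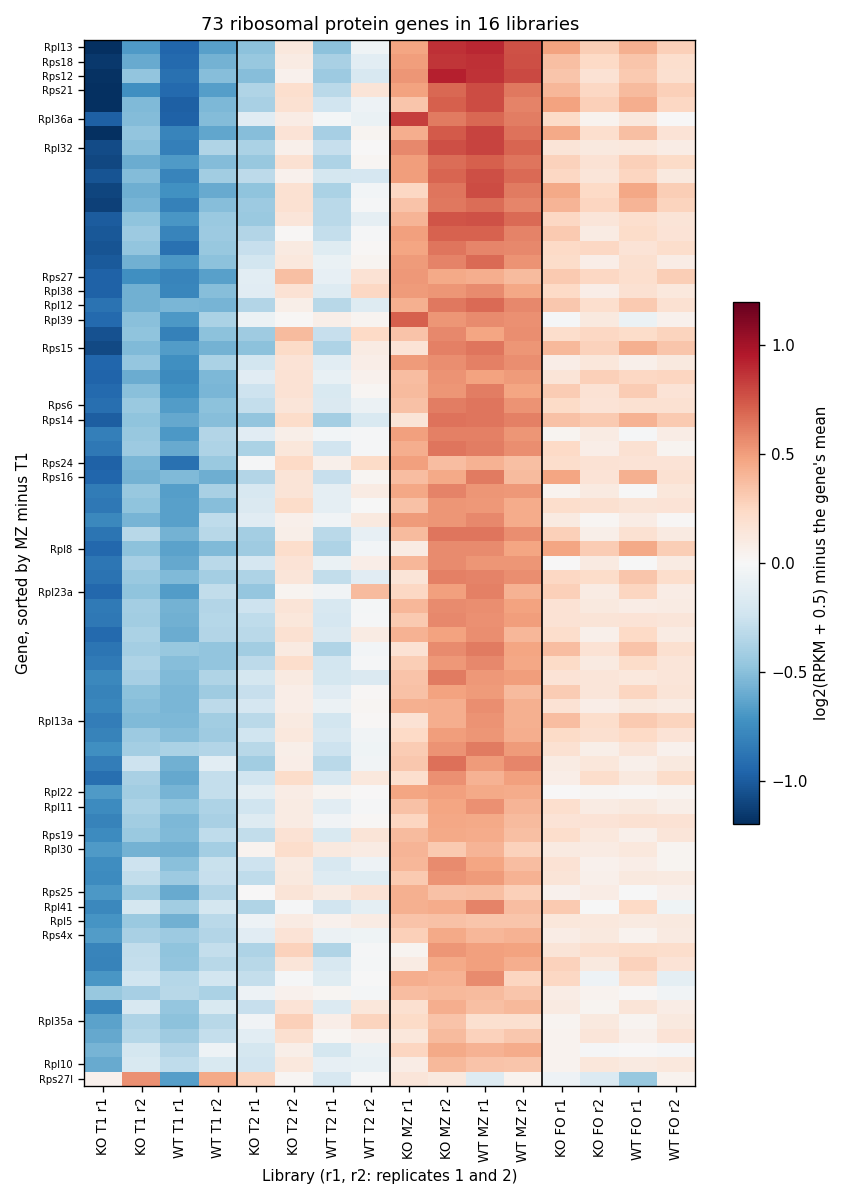
Each row is 1 of the 73 members, sorted by MZ minus T1, and each column 1 of 16 libraries in the order T1, T2, MZ, FO with KO left of WT; color gives log2(RPKM + 0.5) minus the gene's mean. T1 columns are blue and MZ columns red in all rows but the last, Rps27l; row labels are given for genes described in the text.

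The first comparison asked how ribosomal protein mRNA differed at the step between the transitional stages. In T2 minus T1, with the genotypes averaged, 54 of 73 members rose and 0 fell (limma on log2(RPKM + 0.5), adjusted p under 0.05), whereas 16.04% of all tested genes rose and 9.94% fell. The median log2 difference was 0.51 (1.42-fold) for the members and 0.08 for all tested genes, with a median standard error of 0.13 for 1 member. No member passed the 2-fold threshold of the study, which 2.28% of tested genes passed upwards. In 55 members every T2 library was above every T1 library, as was the case for 15.98% of tested genes. Of all genes called here 61.7% were higher in T2, and 45.5% with the libraries scaled by the median ratio, under which 38 members still rose and 0 fell. The members' median was 0.78 after quantile normalization.

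The 4 largest T2 minus T1 differences were those of Rps27, Rps24, Rps21 and Rpl38. Rps27, a zinc finger protein of the small subunit and the member with the highest level, had 3585 and 5027 RPKM in KO T2 and 3649 and 4400.0 in WT T2, against 1993 and 2343 in KO T1 and 2258 and 2483 in WT T1. All T2 values were above all T1 values, and the log2 difference was 0.87 ± 0.18 (SE, adjusted p = 0.0059 by limma), which did not pass without the filter on low genes (adjusted p = 0.40) or with T1 and T2 fitted alone (adjusted p = 0.082). Rps24, mutated in some patients with Diamond-Blackfan anemia, had 1250.2 and 1492 RPKM in KO T2 and 1319 and 1484 in WT T2, against 644 and 866 in KO T1 and 679.5 and 928 in WT T1. Its log2 difference was 0.84 ± 0.14 (adjusted p = 0.0018 by limma), again without overlap. Rps21 rose by 0.82 ± 0.17 (adjusted p = 0.0048), and Rpl38, which mice need for the translation of some Hox mRNAs, by 0.74 ± 0.12 (adjusted p = 0.0016). Among the lowest values were those of Rps27l (-0.08 ± 0.22), Rpl41 (0.22 ± 0.14) and Rpl10 (0.25 ± 0.12), none of which passed the test. After quantile normalization Rpl41 (0.53, adjusted p = 0.0040) and Rpl10 (0.50, adjusted p = 0.0012) passed, and Rpl10 also passed with a replicate block per genotype (adjusted p = 0.033). The other members that did not pass had differences above 0, up to 0.58 (Rps15). Rpl41 encodes the shortest of the ribosomal proteins and Rpl10 a late-joining protein of the large subunit.

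The count for this step rested on single libraries more than its direction did. Leaving out KO T1 replicate 1 gave 32 of 73, WT T1 replicate 1 gave 34, KO T2 replicate 2 gave 31 and WT T2 replicate 2 gave 32, and 16 were called when the T1 and T2 libraries alone were fitted. Leaving out both T1 replicate 2 libraries, those with the most plasma cell transcripts, was an alternative chosen after seeing the data. The T1 replicate 1 libraries that remain still held 686 RPKM (WT) and 1278 RPKM (KO) of plasma cell markers. The libraries left out also had the higher shares of ribosomal protein reads (2.97% in KO and 3.07% in WT, against 2.22% and 2.66%). That fit therefore cannot show the part of the plasma cell transcripts in the T2 minus T1 differences, which was not tested.

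The second comparison was between MZ and T2 cells. In MZ minus T2, 65 of 73 members rose and 0 fell, against 22.8% and 19.6% of all tested genes, and the median log2 difference was 0.55 (1.47-fold) for the members and 0.02 for all tested genes. In 61 members every MZ library was above every T2 library, which 22.5% of tested genes showed. The members that did not pass were Rps27l, Rpl35a, Rps25, Rpl7, Rps24, Rps27, Rpl31 and Rps29, with log2 differences of 0.02 to 0.51. Other settings were followed for these genes except Rpl7, Rpl31 and Rps29. The differences of Rps24 and Rps25 were below 0 after quantile normalization and that of Rps27l after median-ratio scaling. Rps27 passed by limma-voom (adjusted p = 0.015). By limma, Rps24 passed without the T1 libraries (adjusted p = 0.042) and Rpl35a after quantile normalization (adjusted p = 0.039). Leaving out single libraries gave 55 to 68 members called.

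Rps12, a protein of the small subunit, was the only member to pass the 2-fold threshold here, which 6.58% of tested genes passed upwards. It had 2350.5 and 3102 RPKM in KO MZ and 2964 and 2822 in WT MZ, against 1139 and 1688 in KO T2 and 1202 and 1423 in WT T2. The 2 subsets did not overlap, and the log2 difference was 1.05 ± 0.20 (SE, adjusted p = 0.0017 by limma). Rpl13 had 336 and 443 RPKM in KO MZ and 454 and 410.4 in WT MZ, against 172 and 265 in KO T2 and 172 and 234 in WT T2, a difference of 0.98 ± 0.18 (adjusted p = 0.0015). Rps18 had 316 and 404 RPKM in KO MZ and 409 and 381 in WT MZ, against 162 and 238 in KO T2 and 170.1 and 204 in WT T2, a difference of 0.97 ± 0.16 (adjusted p = 0.00068). Rpl32 differed by 0.86 ± 0.17 (adjusted p = 0.0024). In each of these genes KO MZ replicate 1 was the lowest MZ library. At the low end, Rpl35a, also mutated in some patients with Diamond-Blackfan anemia, had 97.6 and 105 RPKM in KO MZ and 94.96 and 94.8 in WT MZ, against 80.6 and 101 in KO T2 and 87.7 and 99.6 in WT T2. Its subsets overlapped, and the difference of 0.09 ± 0.09 did not pass (adjusted p = 0.44). Rpl30 rose by 0.23 ± 0.07 (adjusted p = 0.020, and 0.19 without the KO replicate 1 libraries), while Rps25 (0.25 ± 0.10) did not pass (adjusted p = 0.066). Rps25 passed with the replicate number as a block (adjusted p = 0.048), by limma-voom (0.030) and without the T1 libraries (0.025).

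**Figure D3:**
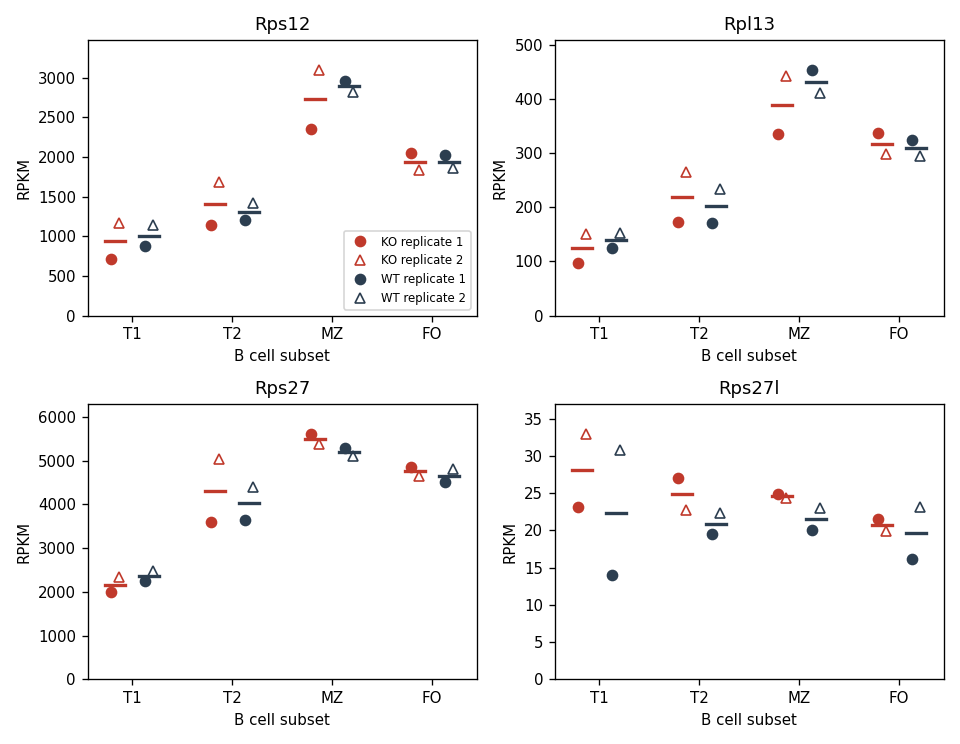
RPKM of Rps12, Rpl13, Rps27 and Rps27l (vertical axes from 0) in each library by subset, KO left of WT, with a line at the mean of 2 libraries. The means of Rps12 and Rpl13 are higher in T2 than in T1 and higher again in MZ. The T2 minus T1 log2 difference of Rps12 (0.50 ± 0.20, SE) did not pass (adjusted p = 0.095 by limma, and 0.045 with a replicate block per genotype). Rps27 has its larger step between T1 and T2, and Rps27l stays between 14.0 and 33.0 RPKM.

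FO cells differed less from T2 cells. In FO minus T2, 1 of 73 members rose and 0 fell, whereas 4.77% of tested genes rose and 5.04% fell. An unadjusted p under 0.05 by limma, in either direction, was that of 27 of 73 members and of 3899 of 12507 tested genes. The median log2 difference was 0.25 (1.19-fold) for the members and 0.00 for all tested genes. No member passed the 2-fold threshold (0.408% of tested genes did so upwards), and 27 members had every FO library above every T2 library (12.99% of tested genes). The member that passed was Rpl12, a protein of the large subunit's stalk base, with a difference of 0.45 ± 0.11 (adjusted p = 0.038 by limma). Larger differences did not pass, among them Rpl13 at 0.60 ± 0.18, Rps14 at 0.56 ± 0.17 and Rpl8 at 0.54 ± 0.18, with adjusted p between 0.060 and 0.074. All 3 passed by limma-voom (adjusted p = 0.045 to 0.0497) and with the replicate number as a block, under which 8 members rose (13 with a block per genotype). Rps27l (-0.18 ± 0.22), Rpl35a (-0.07 ± 0.09), Rps25 (-0.06 ± 0.10) and Rpl30 (-0.03 ± 0.07) had values below 0. The count was 16 without KO T2 replicate 2 and 0 when KO T2 replicate 1, WT T2 replicate 1, either WT MZ library or any FO library was left out, and 2 or 3 without WT T2 replicate 2 or either KO T1 library. Leaving out KO T2 replicate 1 moved the median to 0.13, leaving out its partner replicate 2 to 0.35, and leaving out all KO replicate 1 libraries to 0.11. Rpl30 was above 0 after quantile normalization.

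The mature subsets were set against each other last. In MZ minus FO, 30 of 73 members rose and 0 fell (19.9% and 17.4% of all tested genes), with medians of 0.32 (1.25-fold) for the members and 0.04 for all tested genes. All 73 differences were above 0, 53 members did not overlap between the subsets (25.3% of tested genes) and no member passed the 2-fold threshold, which 5.8% of tested genes passed upwards. Rpl32 had 2230.3 and 2562 RPKM in KO MZ and 2631 and 2431 in WT MZ, against 1663 and 1625 in KO FO and 1631 and 1590.0 in WT FO, the largest difference at 0.60 ± 0.17 (adjusted p = 0.020, and 0.15 without the filter on low genes). Rpl36a (0.59 ± 0.12, adjusted p = 0.0035) and Rpl39 (0.57 ± 0.10, adjusted p = 0.0015), both on the X chromosome, followed, and Rps12 (0.53 ± 0.20) did not pass (adjusted p = 0.061, and 0.028 to 0.034 with either replicate block or by limma-voom). Rpl8 (0.04 ± 0.18), Rpl13a (0.10 ± 0.12), Rps15 (0.13 ± 0.20) and Rps16 (0.15 ± 0.15) had the lowest differences, and those of Rpl8 and Rps16 were below 0 after quantile normalization. Single libraries decided this count too: it was 8 without WT MZ replicate 1, 14 without WT MZ replicate 2, 11 without KO MZ replicate 2 or without any one of the 4 FO libraries, and 54 when only the MZ and FO libraries were fitted.

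**Figure D4:**
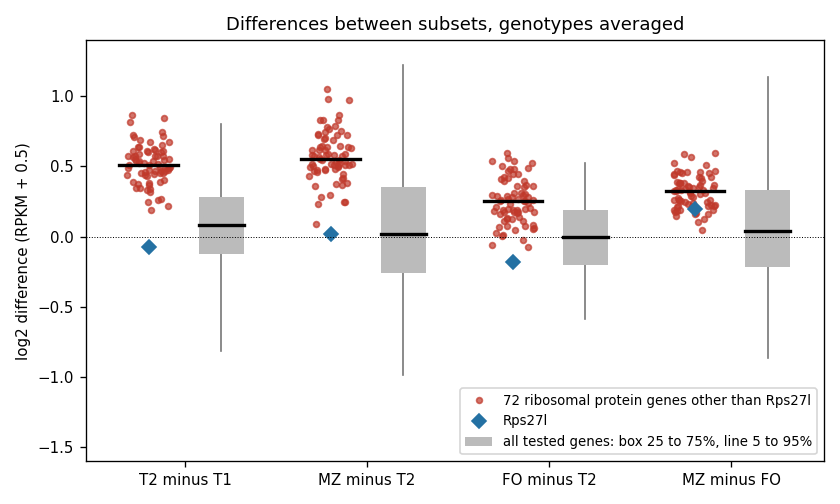
Log2 differences of RPKM + 0.5 between subsets, genotypes averaged, for 72 members (red points), Rps27l (blue diamond) and all 12507 tested genes (grey box from the 25th to the 75th percentile, line from the 5th to the 95th). Black lines are medians, which for the 73 members are 0.51, 0.55, 0.25 and 0.32 from left to right.

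The 4 comparisons share libraries, T2 in 3 of them, so their values for a member are not independent. Differences among members were small next to those of the transcriptome: the SD of the log2 differences over members was 0.16, 0.19, 0.17 and 0.12 for T2 minus T1, MZ minus T2, FO minus T2 and MZ minus FO, and over all tested genes 0.55, 0.73, 0.38 and 0.68. Small and large subunit genes moved alike, with medians of 0.54 (Rps) and 0.49 (Rpl) for T2 minus T1 and of 0.56 and 0.55 for MZ minus T2. Among all tested genes outside the set, the rank correlation of MZ minus T2 with the mean RPKM was -0.23 and with gene length -0.04, that is, highly expressed genes leaned to lower values in MZ. For T2 minus T1 these were -0.02 and 0.005. Both are across genes, which are not independent replicates.

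Several members are also known for functions or diseases beyond protein synthesis in general. Rps6, the target of the S6 kinases downstream of mTOR, had 302 and 407 RPKM in KO T2 and 325 and 349.7 in WT T2, against 195 and 269 in KO T1 and 231 and 260.1 in WT T1, a difference of 0.54 ± 0.13 (adjusted p = 0.011). Its MZ levels of 469 and 561 RPKM in KO and 574 and 532 in WT were all above T2, with MZ minus T2 at 0.63 ± 0.13 (adjusted p = 0.0023). Rpl5 and Rpl11, which together bind and inhibit Mdm2 when ribosome assembly fails, differed by 0.56 ± 0.08 and 0.43 ± 0.10 for T2 minus T1 (adjusted p = 0.00059 and 0.010), and by 0.30 ± 0.08 and 0.51 ± 0.10 for MZ minus T2 (adjusted p = 0.011 and 0.0021). Rpl22, needed in mice for αβ T cell development, rose by 0.49 ± 0.08 and 0.46 ± 0.08 at the 2 steps (adjusted p = 0.0015 and 0.00095). Rps19, the gene most often mutated in Diamond-Blackfan anemia, rose by 0.47 ± 0.12 and 0.45 ± 0.12 (adjusted p = 0.014 and 0.011). Rpl13a, part of a complex that represses translation after interferon in human monocytes, rose by 0.48 ± 0.12 and 0.50 ± 0.12 (adjusted p = 0.016 and 0.0071), and the X-linked Rps4x by 0.44 ± 0.11 and 0.42 ± 0.11 (adjusted p = 0.013 and 0.0095). After quantile normalization the MZ minus T2 difference of Rps4x did not pass (0.17, adjusted p = 0.32 by limma). Without the filter on low genes neither of its differences passed (adjusted p = 0.087 and 0.070 by limma). Rps14, lost in the human 5q- syndrome, rose at the second step (0.72 ± 0.17, adjusted p = 0.0056), while its difference at the first (0.44 ± 0.17) did not pass (adjusted p = 0.081, and 0.042 and 0.020 with the replicate blocks). Fitting the T1 and T2 libraries alone ended the T2 minus T1 calls of Rps6, Rps19, Rpl11, Rpl13a and Rps4x (adjusted p = 0.074 to 0.11), and leaving out the KO replicate 1 libraries ended the MZ minus T2 calls of Rps19 and Rpl5 (both adjusted p = 0.074).

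Rps27l, a paralog of Rps27 that p53 induces in human cells, was the member that departed from the set. It had 23.1 and 33.0 RPKM in KO T1 and 14.0 and 30.8 in WT T1, 27.0 and 22.8 in KO T2 and 19.5 and 22.3 in WT T2, 24.9 and 24.4 in KO MZ and 20.0 and 23.0 in WT MZ, and 21.5 and 19.9 in KO FO and 16.2 and 23.1 in WT FO. All subsets overlapped, and it passed none of the 4 comparisons. In T1 the replicate 2 libraries, which held the most plasma cell transcripts, had the higher values in both genotypes. It was also the least covered member, with 143 to 442 reads per library, whereas every other member had at least 491 reads in every library. The difference between Rps27l and Rps27 was not itself tested.

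Levels among members ranged from 4120.1 RPKM (Rps27) through 1772 (Rps12), 1599 (Rpl32) and 1320.3 (Rps24) to 95.7 (Rpl27), 84.5 (Rpl35a), 79.5 (Rpl15), 42.3 (Rpl24) and 22.8 (Rps27l). This order depends on the gene lengths that the authors used. These were 0.66 to 9.78 times the shortest coding transcript in the consensus set (median 1.92), and the rank correlation of mean RPKM with the length used was -0.66 over the 73 members. Taking the transcript's own length in place of the deposited one gave a rank correlation of 0.62 with the deposited order, with Rps27 first and Rps27l last under both. Sequence shared with other loci is the other limit: 66 of 73 members had at least 1 window of 100 bases, the read length, found exactly in a transcript of another gene, and 30 had over 50% of their windows shared, Rps27 among them (98.4%). Reads there could be dropped or moved between copies, so the levels of these genes are uncertain. The differences between subsets were alike without such windows: medians were 0.49 for the 7 members with none and 0.50 for the 30 for T2 minus T1, and 0.59 and 0.55 for MZ minus T2. Rows named as ribosomal protein pseudogenes held 0.0043% to 0.016% of the reads of a library.

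The other genes of the ribosome and of translation are given as counts, to be read against the shares of all tested genes that rose and fell: 16.04% and 9.94% in T2 minus T1, 22.8% and 19.6% in MZ minus T2, 4.77% and 5.04% in FO minus T2, and 19.9% and 17.4% in MZ minus FO. Of 10 cytosolic ribosomal protein genes and close paralogs with symbols outside the pattern, 3 rose in T2 minus T1, 7 in MZ minus T2, 2 in FO minus T2 and 3 in MZ minus FO, and 0 fell. The stalk proteins Rplp1 and Rplp0 and the laminin receptor Rpsa, a small subunit protein, passed the 2-fold threshold in MZ minus T2: Rplp1 at 1.17 ± 0.18, Rplp0 at 1.09 ± 0.19 and Rpsa at 1.00 ± 0.20 (adjusted p = 0.00045, 0.00085 and 0.0019). Rpl7l1 (0.11 ± 0.07) and Rpl36al (0.15 ± 0.12) had the lowest differences and did not pass. Of 74 mitochondrial ribosomal proteins, which belong to another ribosome, 10 rose (13.5%, below the share of all genes) and 2 fell in T2 minus T1 and 5 rose and 11 fell in MZ minus T2, 1 rose and 1 fell in FO minus T2, and 1 rose and 8 fell in MZ minus FO. Their medians were 0.10, -0.04, -0.02 and 0.03 in the same order, with Mrps34 (0.88) and Mrpl52 (0.77) highest and Mrpl49 (-0.52) and Mrpl40 (-0.37) lowest in MZ minus T2.

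Of 37 elongation and initiation factors, 16 rose and 0 fell in T2 minus T1 and 9 rose and 4 fell in MZ minus T2 (medians 0.24 and 0.04). The 16 are 43.2% of the list, and the 9 are 24.3%, near the share of all genes. Those that rose included the elongation factors Eef1b2 (0.75 ± 0.13) and Eef1a1 (0.64 ± 0.16) in MZ minus T2, and those that fell the initiation factors Eif4g2 (-0.44 ± 0.08) and Eif4e (-0.28 ± 0.07). Of 45 ribosome biogenesis genes, 32 (71.1%) rose and 0 fell in T2 minus T1 (median 0.36), while in MZ minus T2 10 (22.2%, near the share of all genes) rose and 5 fell (median 0.08), with Rrp1b (0.70 ± 0.10) and Wdr12 (0.54 ± 0.09) highest and Ddx10 (-0.59 ± 0.08) and Ltv1 (-0.53 ± 0.08) lowest. In FO minus T2 0 of these rose and 5 fell, and in MZ minus FO 18 rose and 3 fell. The factors had 1 higher and 2 lower in FO minus T2 and 6 and 4 in MZ minus FO. Of 17 regulators of ribosomal protein synthesis, 1 rose and 3 fell in T2 minus T1 and 2 rose and 5 fell in MZ minus T2, 1 rose in FO minus T2, and 3 rose and 7 fell in MZ minus FO. The highest and lowest in MZ minus T2 were Mxd4, a Myc antagonist (1.63 ± 0.07), Myc (1.38 ± 0.51, adjusted p = 0.0503, not past the threshold), the translation inhibitor Eif4ebp1 (-0.53 ± 0.15) and Sp1 (-0.52 ± 0.08). Of 20 cell cycle genes, 0 were called in T2 minus T1 (median -0.24, 5 above 0) or FO minus T2 (median -0.25, 7 above 0). Genes not called may still differ between the subsets. Pcna fell in MZ minus T2 (-0.68 ± 0.23), and 1 rose and 1 fell in MZ minus FO. The 49 tested pseudogene rows, whose reads may stem from the members, gave 3 higher in T2 minus T1, and 7 higher and 1 lower in MZ minus T2.

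Among the tested genes outside the set, the 4 whose log2 values over 16 libraries were most like the members' mean were Eef1g (r = 0.995), Rpsa (0.993), Eef1a1 (0.986) and Rplp2 (0.984). These 4 encode elongation factor subunits and ribosomal proteins. Close behind were Sh3bp1 (0.983), Eef1d (0.982), Sod1 (0.981), Ppargc1b (0.980) and Hcst (0.980), so genes outside translation were almost as alike. The likenesses are a description over libraries of 4 subsets.

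Loss of miR-146a was not accompanied by a detectable change in any member. In KO minus WT, 0 of 73 members passed in T1 (0.04% of tested genes did), T2 (0.048%), MZ (0.064%), FO (0.04%) or over the 4 subsets (0.232%), and 0 had an unadjusted p under 0.05 in any of these; limma-voom on recovered reads called 0 as well. The median log2 differences were -0.16 (T1), 0.01 (T2), -0.06 (MZ), 0.01 (FO) and -0.05 (over the 4 subsets), against 0.00, 0.01, 0.03, 0.02 and 0.02 for all tested genes. For 1 member the 95% interval, not adjusted for the number of genes, reached a median of 0.42 to either side in 1 subset and of 0.21 over the 4 subsets. Differences below about these sizes could not be seen, and larger ones could still miss the adjusted threshold.

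**Figure D5:**
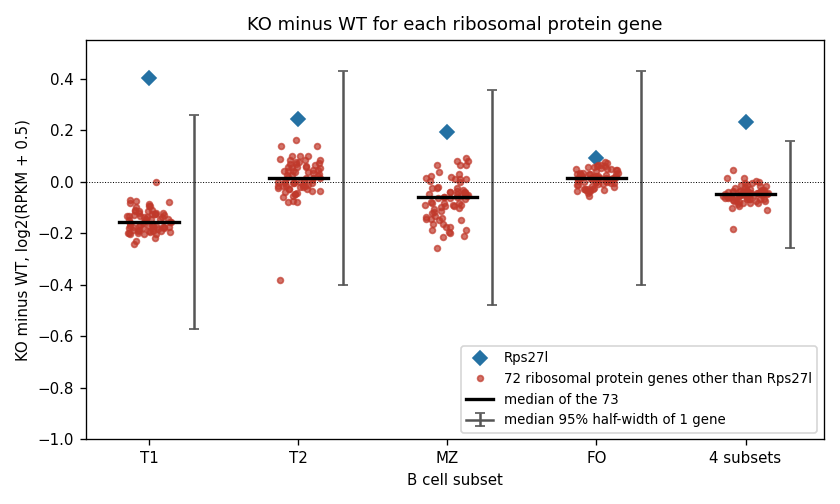
KO minus WT on the log2(RPKM + 0.5) scale for each member in each subset and over the 4 subsets, with the median of 73 (black line) and, as grey bars around that median, the median 95% half-width for 1 gene (0.42 in 1 subset, 0.21 over 4). The medians are -0.16 in T1, 0.01 in T2 and FO and -0.06 in MZ, and Rps27l (blue diamond) is the highest point in all 5 columns.

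In T1, 72 of 73 members were lower in KO than in WT, and in MZ 56 were, but the members share their libraries and move together, so these counts are not 73 observations. KO T1 replicate 1 held the lowest share of ribosomal protein reads of all libraries, and without it the median in T1 was 0.06, whereas without KO T1 replicate 2 it was -0.37. Over the 4 subsets these medians were 0.01 and -0.11. The lowest differences over the 4 subsets were those of Rpl23a (-0.18 ± 0.11) and Rps15 (-0.11 ± 0.14) and the highest those of Rps27l (0.23 ± 0.15) and Rpl36a (0.04 ± 0.09), with adjusted p between 0.68 and 0.93 by limma. That of Rps15 was above 0 without the KO replicate 1 libraries. For Rpl23a the difference was widest in T2, with 72.5 and 103 RPKM in KO and 97.3 and 130.4 in WT, and the genotypes overlapped there. The 7 members on chromosome 11 (Rpl19, Rpl23, Rpl23a, Rpl26, Rpl27, Rpl38 and Rps27a), the chromosome on which the deleted miR-146a gene lies in mice, had differences of -0.18 to -0.03 over the 4 subsets (median -0.04).

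The rise along the subsets was likewise not shown to differ between the genotypes. The interaction tests of KO minus WT called 0 of 73 members for T2 minus T1 (0.0% of tested genes), for MZ minus T2 (0.008%) and for FO minus T2 (0.008%), with 0 at an unadjusted p under 0.05. Their medians were 0.17, -0.08 and -0.01 with a median standard error of 0.27. Their signs rested on single KO libraries: the median for T2 minus T1 was -0.05 when KO T1 replicate 1 was left out and 0.40 when its partner replicate 2 was, that for MZ minus T2 was -0.30 when KO T2 replicate 1 was left out and 0.12 when its partner replicate 2 was, and that for FO minus T2 was -0.22 and 0.20 without the same T2 libraries in turn. Within the genotypes, T2 minus T1 had a median of 0.59 in KO and 0.43 in WT, MZ minus T2 of 0.52 in KO and 0.60 in WT, FO minus T2 of 0.23 in KO and 0.25 in WT, and MZ minus FO of 0.27 in KO and 0.36 in WT. Rps12 had MZ minus T2 at 0.96 ± 0.28 in KO and 1.14 ± 0.28 in WT, and the 95% interval of their difference was -1.07 to 0.70. None of the 10 ribosomal protein genes outside the pattern, the 74 mitochondrial ones, the 37 factors, the 45 biogenesis genes, the 17 regulators, the 20 cell cycle genes or the 49 pseudogene rows passed in KO minus WT over the 4 subsets either.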

How the data were processed

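mRNA libraries (TruSeq kit, single-end reads) were made from sorted KO and WT T1, T2, MZ and FO B cells, 2 per group. The authors mapped reads with TopHat to mm10 (GRCm38), kept unique reads and deposited RPKM per gene. These are not counts. For 13395 of 23194 genes above 0, the annotated gene length made the values whole multiples of 1 read (within 0.01 of a read). For the other 9799 genes a length that made them whole was searched for, so their match was partly set by the search. This gave reads and depth per library, with no other column in the table. Members were read off fits to all 12507 genes with a group mean above 1 RPKM.

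limma (version 3.58.1, R 4.3.3) was run on log2(RPKM + 0.5) with a mean for each of 8 groups and a variance trend, and p-values were adjusted by Benjamini-Hochberg within a comparison. Fold changes on this scale understate those of low genes. The script was tested on simulated data. Called means adjusted p under 0.05, and the 2-fold threshold adds a log2 difference over 1. The alternatives were pseudocounts of 0.1 and 1, no filter, median-ratio and quantile scaling, replicate blocks, limma-voom on recovered reads, fits of the compared libraries alone and libraries left out.

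The members, gene lists and naming rule were chosen with earlier results of these data known. Genes were named by rule: the 4 highest and 4 lowest differences per subset comparison, the 2 highest and 2 lowest for KO minus WT, members past 2-fold, the 5 highest and lowest levels, paralogs and textbook members. Rpl12 was named after its value was seen. Some genes that this rule takes are not reported here by name, though all 73 members stay in every count and median. Lists were 10 ribosomal proteins outside the pattern, mitochondrial ribosomal proteins, translation factors, biogenesis genes, regulators, cell cycle genes and pseudogene rows. Transcripts were from GENCODE M21 and promoters from RefSeq.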

Additional observations from a re-analysis of the deposited data

How the results depend on the processing

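Every subset difference of the members kept its direction as a median under all alternatives, and no KO minus WT or interaction test called a member under any of them. The number called in T2 minus T1 was 54, 16 with only the compared libraries fitted and 31 to 67 with 1 library left out. In MZ minus FO it was 30, 12 without the filter, 54 with only the compared libraries and 8 to 38 with 1 library left out. In FO minus T2 it was 1, 0 without the filter, without the KO replicate 1 libraries or with only the compared libraries, 13 after quantile normalization, 5 by limma-voom, 4 without the T1 libraries, 3 without the T1 replicate 2 libraries and 0 to 16 with 1 library left out.

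With the replicate number as a block FO minus T2 gave 8 and with a number per genotype 13, against 63 and 67 for T2 minus T1 and 41 for MZ minus FO under both. These and the other counts of members called under an alternative are given without the share of all tested genes called there. A changed count therefore cannot be read as particular to the members. The numbers were not shown to pair the libraries, since correlations of replicate deviations between subsets were over 0.1 in all 6 pairs within KO (0.19 to 0.44) but in 4 of 6 within WT (0.076 to 0.45), and those between KO and WT of a subset were -0.23 to 0.30. Crossed numbers in MZ and FO, chosen after seeing the data, called 0 members in KO minus WT.

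Of 57 differences of named genes, 8 of 654 values under other settings and 10 of 912 with 1 library left out changed sign, none of them called. Median-ratio scaling gave -0.0011 for Rps27l in MZ minus T2. Quantile normalization gave -0.087 for Rps25 and -0.0039 for Rps24 in MZ minus T2, 0.025 for Rpl30 in FO minus T2, and -0.030 for Rpl8 and -0.027 for Rps16 in MZ minus FO. Rps15 in KO minus WT was 0.094 without the KO replicate 1 libraries, and Rps27l in T2 minus T1 was 0.33 without the T1 replicate 2 libraries. With 1 library left out, Rps27l ranged over -0.35 to 0.20 in T2 minus T1 and -0.045 to 0.077 in MZ minus T2, Rpl35a over -0.15 to 0.0086 and Rpl30 over -0.069 to 0.017 in FO minus T2, Rpl8 over -0.073 to 0.16 in MZ minus FO, and Rpl36a over -0.012 to 0.10 in KO minus WT. The cause was not tested.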
